A study of Arabidopsis thaliana with 4 samples.

Results

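CHH sites of the pericentromeres were examined in shoot apices of Arabidopsis thaliana, where CHH is a cytosine followed by 2 bases other than G. The deposited lists hold only called sites, each with at least 2 methylated reads. A member lay inside a pericentromeric interval of its chromosome and was listed with 5 to 50 reads in each of the 4 libraries. The intervals were chr1:11500001-17700000, chr2:3520001-7200000, chr3:10300001-17300000, chr4:2400001-6300000 and chr5:9000001-16000000. They make up 23.3% of the nuclear genome and held 145335 of the 260755 nuclear CHH sites listed with such a depth in all libraries (55.7%). There were 29787 members on chromosome 1, 21325 on chromosome 2, 38650 on chromosome 3, 22098 on chromosome 4 and 33475 on chromosome 5.

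The study asked how nitric oxide signaling acts on DNA methylation in the shoot meristem. All plants received 0.025% of the wetting agent Silwet for 24 h, either alone (mock, 2 libraries) or with 1 mM sodium nitroprusside, a donor of nitric oxide (SNP, 2 libraries). The labels give shoot apices of genotype Col-0 without an age, and the methods name apices of the ap1/cal mutant, whose inflorescence meristems over-proliferate instead of forming flowers. Methylation was read by EM-seq, an enzymatic alternative to bisulfite sequencing. Enzymes first shield methylated cytosines and then turn the unshielded ones into uracil, so that only the former still appear as C. Apices hold many cell types, so a changed level within cells and a changed mix of cells cannot be told apart.

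In plants, methylation of CHH sites is not copied from strand to strand at replication and has to be set anew. In the long, gene-poor stretches around the centromeres the chromatin enzyme CMT2 does most of this work and prefers the trinucleotides CAA and CTA, whereas DRM2 is guided by small RNAs and AGO4 in RNA-directed DNA methylation (RdDM), mainly at short transposons and at the edges of long ones. MET1 maintains CG methylation and CMT3 maintains CHG methylation. The intervals had the make-up that their name leads one to look for, with protein-coding genes over 21.5% of their bases against 64.0% of the chromosome arms, by which all other nuclear sequence is meant here.

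To show what such sites look like, the 200 bp bin with the most members is given for each chromosome, in the build of the reference assembly (TAIR10.1) and as the plus strand. Capital letters mark the members, with C for a member on the plus strand and G for one on the minus strand.
Chromosome 1, chr1:15610401-15610600: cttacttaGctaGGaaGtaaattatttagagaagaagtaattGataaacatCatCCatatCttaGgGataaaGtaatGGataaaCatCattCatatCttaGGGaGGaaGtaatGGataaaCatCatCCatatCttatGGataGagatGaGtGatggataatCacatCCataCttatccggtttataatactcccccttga
Chromosome 2, chr2:5588801-5589000: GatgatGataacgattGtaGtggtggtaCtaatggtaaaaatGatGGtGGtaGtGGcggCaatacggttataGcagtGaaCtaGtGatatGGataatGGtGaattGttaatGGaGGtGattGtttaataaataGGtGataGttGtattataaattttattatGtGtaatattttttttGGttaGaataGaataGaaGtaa
Chromosome 3, chr3:10441401-10441600: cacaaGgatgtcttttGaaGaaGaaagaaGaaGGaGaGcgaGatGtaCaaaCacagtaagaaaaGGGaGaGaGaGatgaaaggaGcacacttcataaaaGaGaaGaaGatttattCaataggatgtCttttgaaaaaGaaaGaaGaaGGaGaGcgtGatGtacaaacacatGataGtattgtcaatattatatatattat
Chromosome 4, chr4:3768201-3768400: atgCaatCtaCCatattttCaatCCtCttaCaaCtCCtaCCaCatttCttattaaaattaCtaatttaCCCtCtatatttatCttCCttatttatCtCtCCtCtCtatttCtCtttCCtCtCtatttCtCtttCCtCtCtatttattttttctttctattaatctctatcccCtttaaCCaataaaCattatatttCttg
Chromosome 5, chr5:9872601-9872800: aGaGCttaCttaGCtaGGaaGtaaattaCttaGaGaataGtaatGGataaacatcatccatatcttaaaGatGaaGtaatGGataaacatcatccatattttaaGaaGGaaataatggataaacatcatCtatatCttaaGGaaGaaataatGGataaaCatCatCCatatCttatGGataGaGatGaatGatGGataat
The chromosome 1 bin held 41 members and lies in the pseudogene AT1G41835, at 2435 bp from SKS6, a gene of the multicopper oxidase-like SKU5 SIMILAR family. The chromosome 2 bin held 44 members, of which 41 were on the minus strand. The chromosome 3 bin held 38 members and lies 1008 bp from UMAMIT41, a gene of a family of amino acid transporters. All 47 members of the chromosome 4 bin were on the plus strand, and it lies 1530 bp from YY1, which encodes a zinc finger protein. The chromosome 5 bin held 43 members and lies 267 bp from the gene AT5G27850. Apart from the first, no bin overlapped an annotated gene.

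Such clusters were rare. Members were present in 32.4% of the 138900 bins of the intervals, with a median of 2 members per occupied bin, and the 286 bins with 20 or more members held 4.84% of all members. The bins of chromosomes 1 and 5 share a run of 40 bases, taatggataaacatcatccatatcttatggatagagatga. Whether reads over this run were placed in the right copy was not tested. In these 5 bins CAA and CTA made up only 4 to 17 of the members of a bin. Bin levels, as methylated reads over all reads, were 55.0% and 52.8% in mock against 65.7% and 56.4% in SNP libraries on chromosome 2, where the groups did not overlap. On chromosome 4 they were 56.7% and 71.4% in mock against 48.2% and 60.7% in SNP. The groups overlapped in 4 of the 5 bins, and the SNP mean was below the mock mean in the same 4.

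To ask how strongly the members were methylated, the weighted level was computed per library as methylated reads over all reads, summed over members. It was 40.97% for mock 1, 40.3% for mock 2, 43.7% for SNP 1 and 44.1% for SNP 2. Libraries of the groups thus did not overlap. Means were 40.7% ± 0.442 in mock and 43.9% ± 0.277 in SNP (SD, n = 2), and the difference of 3.20 percentage points was larger than the pooled replicate SD of 0.369. An exact two-sided permutation test gave p = 0.333, the smallest that 2 against 2 libraries allow, so that no comparison of this kind can reach 0.05. Nothing in the labels says that the replicates came from separate plants, and p-values measure only the spread between these samples.

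The same order of groups was found on every chromosome. On chromosome 1 the level was 40.99% and 40.3% in mock against 43.5% and 43.8% in SNP libraries. On chromosome 2 it was 40.7% and 40.6% in mock against 43.9% and 44.3% in SNP. On chromosome 3 it was 41.5% and 40.5% in mock against 44.2% and 44.4% in SNP. In each of these 3 chromosomes the SNP libraries lay closer to each other than to any mock library. Chromosome 4 had 39.7% and 39.2% in mock against 42.1% and 42.9% in SNP. On chromosome 5 the level was 41.3% and 40.8% in mock against 44.1% and 44.6% in SNP. Differences between SNP and mock were 3.01, 3.42, 3.31, 2.99 and 3.27 points on chromosomes 1 to 5, with pooled SDs from 0.221 to 0.522, and each had an exact permutation p of 0.333, also after Benjamini-Hochberg adjustment over the 5 chromosomes.

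Chromosome 4 had the lowest level of the 5 chromosomes in each library. Set against the other 4 chromosomes within the same library, it was lower by 1.37 to 1.91 points in all 4 libraries. Chromosomes 3 and 5 were higher than the rest in all 4 libraries, by 0.186 to 0.742 and by 0.449 to 0.638 points. The order depended on the depth of the sites. Among members with at most 11 reads in every library chromosome 2 was lowest in mock with 44.9%, next to 45.1% on chromosome 4, and chromosome 1 was highest with 46.2%. Without a maximum depth chromosome 3 was lowest, with 11.8% in mock, and chromosome 1 was highest with 32.7%. At the members with 5 to 50 reads, for chromosomes 3, 4 and 5 an exact sign-flip permutation test over the libraries gave the smallest p that n = 4 allows, which is above 0.05. Chromosomes 1 and 2 lay on different sides of the rest in different libraries (exact sign-flip p = 0.375 each, n = 4). The SNP minus mock difference of chromosome 1 was 0.239 points smaller than that of the others, without overlap of the groups (pooled SD 0.0646), and for the other 4 chromosomes the groups overlapped in this measure.

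**Figure D1:**
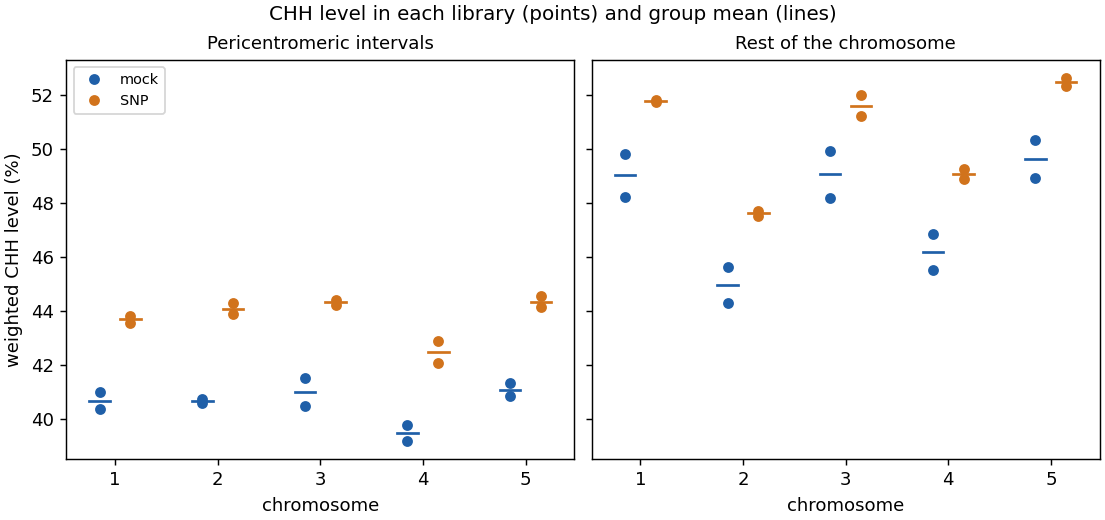
Weighted CHH level (%, y axis, which does not start at 0) by chromosome in the pericentromeric intervals (left) and in the rest of each chromosome (right). Sites are those listed with 5 to 50 reads in all libraries. Points are single libraries, blue for mock and orange for SNP, and lines are means of n = 2. In the intervals mock libraries sit between 39.2% and 41.5% and SNP libraries between 42.1% and 44.6%, and each library has a higher level in the arms than in the interval of the same chromosome.

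Because only called sites are in the deposited lists, depth enters these levels. Every listed site had at least 2 methylated reads, so the lowest level that a site with 5 reads can have is 40%, against 20% for a site with 10 reads. Median depth at the members was 11 reads for mock 1, 10 for mock 2 and SNP 1, and 9 for SNP 2. Mock 2 listed sites with 2 methylated reads up to a depth of 17 reads, against 11 or 12 in the other libraries. Reads at the members were fewer in both SNP libraries, 1561589 and 1458734, than in both mock libraries, 1681730 and 1585549. Members whose lowest depth was 5 reads had a level of 45.1% in mock against 49.1% in SNP, and those with at least 10 reads everywhere had 35.1% and 38.0%. Within the depth classes 5, 6 to 7, 8 to 9 and 10 to 50 reads the differences were 3.95, 3.25, 3.21 and 2.96 points, each without overlap.

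With the listing limit or the depth made equal the difference was smaller. At members with at most 11 reads, where 2 methylated reads suffice in every library, it was 2.34 points. Depth could still differ between libraries at these members. Thinning made depth equal but started from sites already listed under each library's own limit. After each site had been thinned at random to 5 reads per library and kept when it still had 2 methylated reads in all 4 libraries, 45285 sites had a level of 58.1% and 57.9% in mock and of 59.97% and 59.5% in SNP, a difference of 1.77 points (pooled SD 0.254) without overlap. The depth maximum mattered as well. It removed 8987 sites, 5.82% of those with at least 5 reads in all libraries, which held 72.1% to 73.9% of the reads, and with these sites included the difference was 1.05 points.

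Sites just inside and just outside the depth limits had similar differences. Sites with a lowest depth of 4 reads had levels of 47.5% in mock against 51.5% in SNP, next to 45.1% and 49.1% for those with 5. Sites whose highest depth was 41 to 50 reads had 24.6% and 27.3%, and those with 51 to 60 reads had 22.9% and 25.4%. Both strands showed the difference, since the 72104 plus-strand members were higher in SNP by 3.09 points and the 73231 minus-strand members by 3.32 points.

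Libraries also differed in how many members had a low or a high level. The classes were formed in each library, and since a level of up to 25% needs at least 8 reads, their shares also move with depth. The share of members with a level of up to 25% was 20.2% and 21.5% in mock against 16.4% and 14.9% in SNP libraries. Members above 75% made up 5.39% and 5.45% in mock against 7.34% and 7.46% in SNP. Neither class overlapped between groups. In the class above 50% and up to 75% the shares were 21.6% ± 0.325 in mock and 24.8% ± 0.101 in SNP (SD, n = 2), whereas the class above 25% and up to 50% held 52.1% of the members in each group and overlapped.

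To see whether this was particular to the pericentromeres, each library's level in the intervals was set against its level in the arms. Arm sites had 48.4% and 46.9% in mock against 50.5% and 50.3% in SNP libraries, so that the level of the intervals minus that of the arms was -6.998 points in mock and -6.53 points in SNP on average. The level in the intervals was lower in 4 of 4 libraries (the smallest p of an exact sign-flip test with n = 4). This gap rests on sites listed in all libraries, since with each library's own sites it was 0.269 points in mock and -0.466 points in SNP. The arms were higher in SNP by 2.73 points, and the treatment difference was 0.469 points larger in the intervals, which was within the pooled SD of 0.4995 and with overlap of the groups (exact permutation p = 0.667, n = 2 per group). With a minimum depth of 10 reads it was 0.553 points and without a maximum depth -0.627 points, both without overlap, and with each library's own sites it was -0.735 points with overlap. Whether the intervals or the arms had the larger difference thus depended on the sites used.

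Members were also counted, since the intervals stand out by how many sites they hold. There were 523 members per 100 kb in the intervals and 126 comparable sites per 100 kb in the arms, or 1.98% against 0.484% of the CHH cytosines of the reference. Density was 480 members per 100 kb on chromosome 1, 579 on chromosome 2, 552 on chromosome 3, 567 on chromosome 4 and 478 on chromosome 5. The short intervals of chromosomes 2 and 4 thus had the highest densities. Chromosomes 2 and 4 also came first in the arms, with 174 and 141 sites per 100 kb. The other arms held 103 to 115, so this rank was not particular to the intervals.

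In 100 kb windows, density varied more than level. The median window held 501.5 members, and 276 of 278 windows held at least 20. The fullest window was chr1:16500001-16600000 with 1470 members, 5.34% of its CHH cytosines. The fullest windows of chromosomes 3 and 4 were chr3:15100001-15200000 with 1247 and chr4:5000001-5100000 with 1230 members. On chromosomes 2 and 5 they were chr2:5600001-5700000 with 1014 and chr5:13300001-13400000 with 917 members. Each of these 5 windows was among those higher in SNP by the window test given further on. So were all 32 pericentromeric windows with 800 or more members, against 62.0% of the 276 windows. At the other extreme, chr1:15300001-15400000 held 7 members, and chr5:14400001-14500000 held no member and was not analysed here. A run of sparse windows in the chromosome 1 interval, chr1:14600001-15000000, held 42 to 103 members per window, and undetermined bases of the reference took 0% to 49.1% of these windows.

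**Figure D2:**
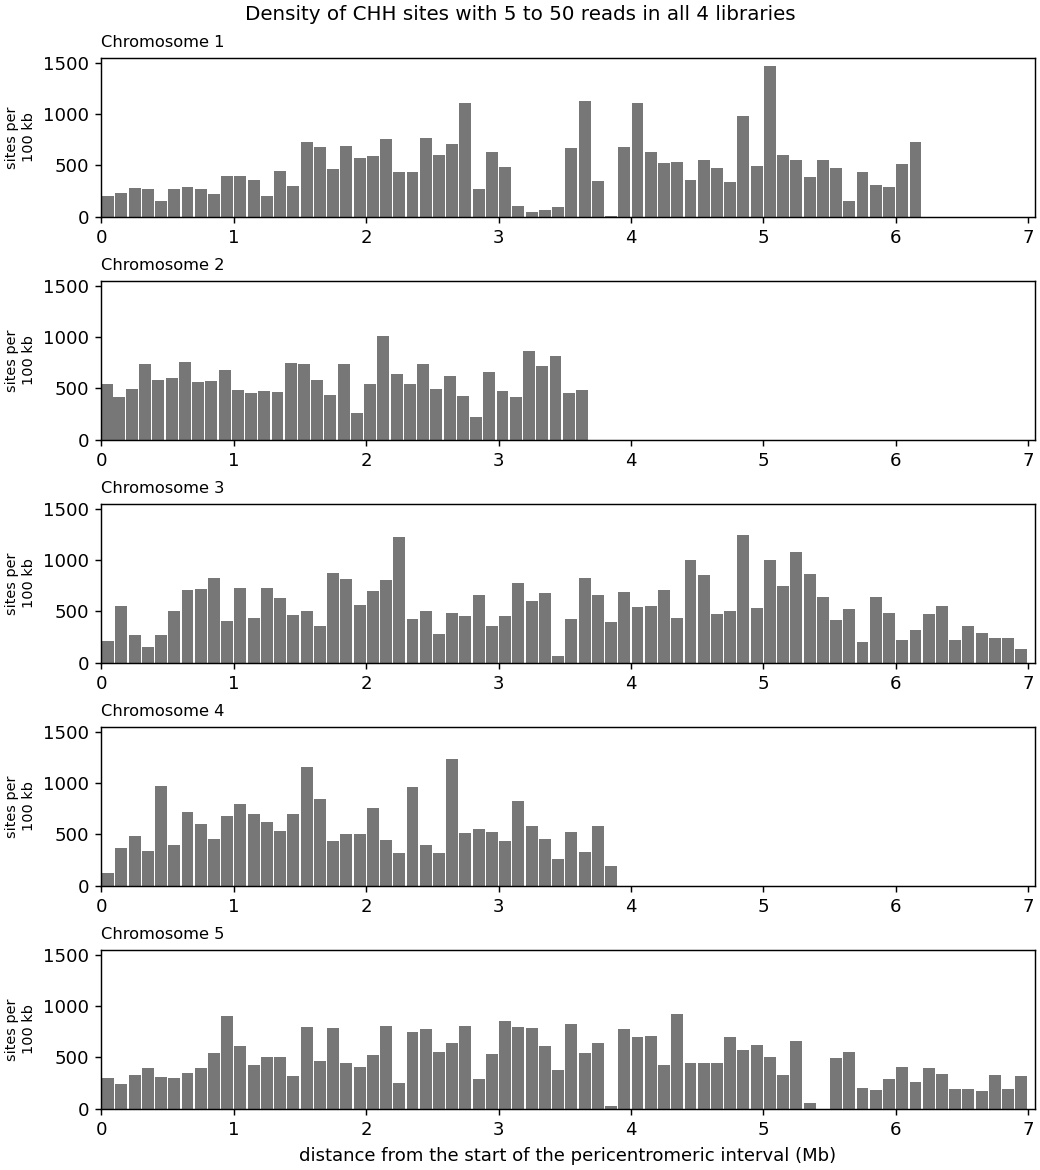
Number of CHH sites listed with 5 to 50 reads in all 4 libraries per 100 kb (y axis) along each pericentromeric interval. The x axis gives the distance from the start of the interval in Mb. Each bar is one window. Bars vary between neighbouring windows, the highest reaches 1470 sites on chromosome 1, and the gap near the end of chromosome 5 is a window without members, which was not analysed.

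Density and level followed opposite courses from the interval ends inward. Windows up to 500 kb outside the ends held 273 sites per 100 kb. Inside, the density was 382 in the first 500 kb, 473 in the second, 539 in the third and 592 further in. The mock level was 44.4% outside the ends and 43.5%, 42.0%, 40.5% and 39.6% in the successive classes inside. The centre of the intervals thus held the most members and the lowest level, while protein-coding genes fell from a median of 44.6% of a window in the first 500 kb to 6.57% furthest in. The SNP minus mock difference was 3.01 points outside the ends and 2.78, 3.10, 3.23 and 3.34 points inside, in each class without overlap and with pooled SDs from 0.340 to 0.694. At the ends themselves the steps in density had no common direction, since the inner of the adjoining windows held more sites at 5 of 10 ends.

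Across the 276 windows with at least 20 members, density had a Pearson correlation of -0.43 with the share of protein-coding bases and of 0.64 with the mock CHG level, and of -0.10 with the mock CHH level. These are descriptions over neighbouring windows of the same libraries. The mock CHH level had a correlation of -0.61 with the share of CAA and CTA among the members. Mock and SNP levels of a window had a correlation of 0.94, so that the profile along the chromosomes was alike in both treatments.

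The highest mock levels were found in windows with more gene bases than the intervals as a whole. They were 51.2% in chr1:11600001-11700000, 50.2% in chr3:10500001-10600000 and 49.2% in chr5:15400001-15500000, where protein-coding genes covered 54.5%, 31.1% and 57.7% of the window. In these 3 windows the groups overlapped. On chromosomes 2 and 4 the highest levels were 46.9% in chr2:6700001-6800000 and 46.4% in chr4:2500001-2600000. Here the SNP libraries lay above the mock libraries, an order that choosing by a high mock level works against.

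The lowest levels were found in the inner part of the intervals and, on chromosome 2, close to an end. In chr1:14700001-14800000, a window with 42 members and 49.1% undetermined bases, the level was 24.2% and 23.3% in mock against 29.1% and 27.9% in SNP libraries. The lowest window of chromosome 3, chr3:13700001-13800000, had 65 members and a mock level of 30.9%. In chr4:3900001-4000000, by contrast, 1152 members were counted at 31.1% and 31.3% in mock against 33.5% and 34.2% in SNP. Low level was therefore found both in sparse and in dense windows. The lowest windows of chromosomes 2 and 5 had mock levels of 31.1% in chr2:3600001-3700000 and 32.5% in chr5:11700001-11800000. In all 5 of these windows both SNP libraries were above both mock libraries. Choosing windows by a low mock level favours this order. It was also found in 87.3% of the 276 pericentromeric windows and in 57% of all 1051 windows.

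**Figure D3:**
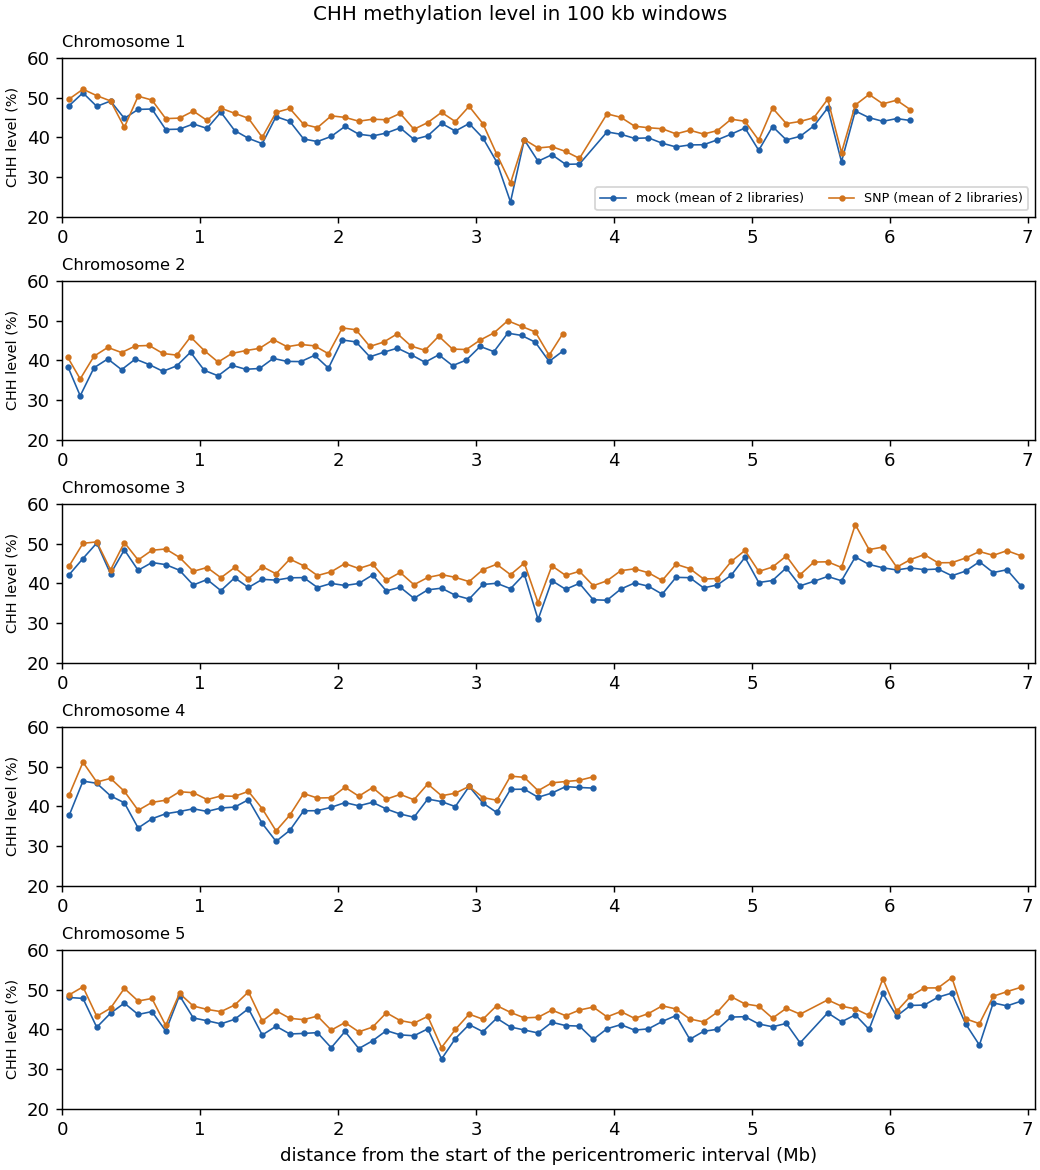
Weighted CHH level (%, y axis, which does not start at 0) in 100 kb windows with at least 20 sites along the pericentromeric intervals, against the distance from the start of the interval in Mb (x axis). Blue points are the mean of the 2 mock libraries and orange points that of the 2 SNP libraries. The lines follow each other, with the orange above the blue in 275 of 276 windows, and dip to 23.7% in mock on chromosome 1.

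To ask in which windows the level differed, methylated and unmethylated read counts were tested per window with the quasi-likelihood test of edgeR, adjusted over 1051 windows of the whole nuclear genome. Of the 276 pericentromeric windows, 171 (62.0%) were higher in SNP at an adjusted p under 0.05 and 0 were lower. Over all 1051 windows, 25.8% were called higher and 0.0951% lower. By chromosome, 30 of 61 windows were called on chromosome 1, 30 of 37 on chromosome 2, 50 of 70 on chromosome 3, 24 of 39 on chromosome 4 and 37 of 69 on chromosome 5. Chromosomes 2 and 3 had the largest shares called, 81.1% and 71.4%.

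The share of windows called was larger in windows with more sites. Median windows held 501.5 sites in the intervals and 106 in the arms. Of windows with 20 to under 200 sites, 15% of 20 were called in the intervals and 6.72% of 595 in the arms. Of windows with 200 to under 400 sites, 21.0% of 62 were called in the intervals and 24.6% of 142 in the arms. With 400 to under 800 sites, 75.9% of 162 were called in the intervals and 63.9% of 36 in the arms. All 32 pericentromeric windows with 800 or more sites were called, as were both of the arms.

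These calls did not hold under all settings. The test of limma on the log2 odds of each window's level called 0 windows (72 at an unadjusted p under 0.05), and Fisher's exact test on pooled reads, which ignores the spread between replicates, called 248. The edgeR test called 0 windows with a minimum depth of 10 reads (71 unadjusted), 0 among members under the common listing limit (70 unadjusted) and 0 after thinning (44 unadjusted), where fewer reads enter each window. Without mock 2 it called 68 windows, all of them among the 171.

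The 10 windows with the smallest adjusted p held 687 to 1470 members, with differences from 2.54 to 5.52 points. The first was chr1:15100001-15200000, with 1125 members and a level of 32.6% and 33.8% in mock against 36.5% and 36.4% in SNP libraries (edgeR adjusted p = 1.65e-10). The largest difference among the 10 was in chr3:12300001-12400000, where 701 members had 39.3% and 39.6% in mock against 44.3% and 45.7% in SNP (edgeR adjusted p = 2.89e-07). In chr2:4900001-5000000 the level of 750 members was 37.9% and 38.0% in mock against 42.5% and 43.6% in SNP (edgeR adjusted p = 1.87e-07). In these 3 windows, chosen for their small p-values, replicates lay closer to each other than to the other group, an order that this choice favours. Protein-coding genes covered none of the first window and 3.51% and 1.36% of the others.

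Counted without a test, SNP 1 and SNP 2 each exceeded both mock libraries in 241 of the 276 windows (87.3%) and lay below both in 0, where 57% and 3.81% of all 1051 windows did so. On chromosome 2 this was the case in 37 of 37 windows. The SNP mean was above the mock mean in 275 windows, and the exception was chr1:11900001-12000000, with 46.9% and 42.7% in mock against 41.8% and 43.3% in SNP libraries over 156 members (edgeR adjusted p = 0.544). The median difference was 3.27 points, with a middle range of 2.56 to 3.92 between the quartiles. Members under the common listing limit gave a positive difference in 224 of 268 windows, with a median of 2.34 points, and 160 windows without overlap above (59.7%, against 44.8% of all windows so measured). After thinning it was positive in 223 of 269 windows, with a median of 1.79 points, and 131 did not overlap above (48.7%, against 35.1% of all windows). When each library's arm level was subtracted first, 80 windows (29.0%) lay above and 24 (8.70%) below without overlap, where 21.7% and 16.7% of all 1051 windows did so, and the median difference was 0.54 points.

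**Figure D4:**
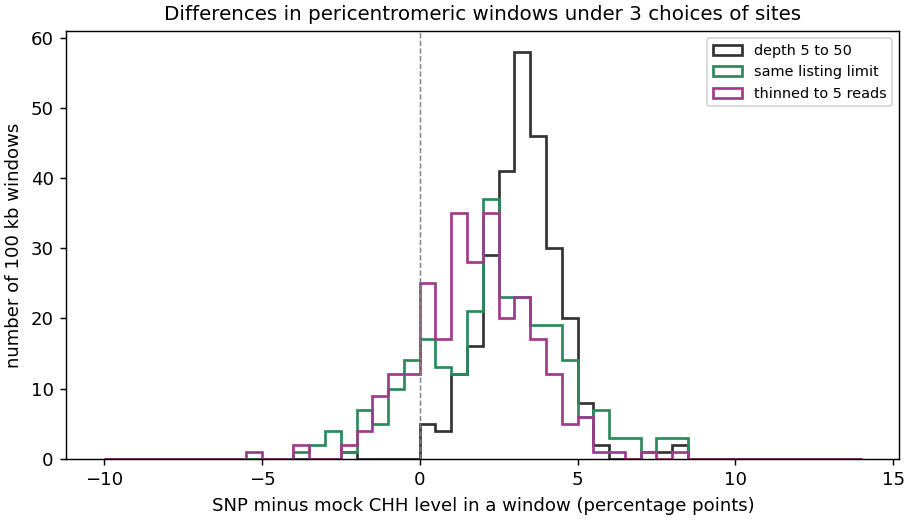
Distribution of the SNP minus mock difference in CHH level (percentage points, x axis) over pericentromeric 100 kb windows with at least 20 sites (number of windows per 0.5-point class, y axis). The black line holds all members (276 windows), the green line members under the common listing limit of 11 reads (268 windows) and the purple line sites thinned to 5 reads (269 windows). All distributions lie mostly to the right of 0, with medians of 3.27, 2.34 and 1.79 points.

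Members differed strongly by trinucleotide, the feature for which CMT2 has its preference. CAA made up 45.8% and CTA 31.7% of the members, together 77.5%, while they account for 28.5% of the CHH cytosines of the intervals. In the arms the same trinucleotides made up 53.4% of the comparable sites and 27.9% of the reference. Members were 5.38% of the CAA and CTA cytosines and 0.623% of the other 7 kinds. The rarest were CCC with 0.977% and CCT with 1.39% of the members. By chromosome the share of CAA and CTA ran from 76.5% on chromosome 5 to 80.1% on chromosome 4, the chromosome with the lowest level.

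The level of the members varied little between trinucleotides, from 38.8% for CTC to 41.6% for CTA in mock. Cytosines outside the lists enter none of these levels, so the spread over all cytosines is not known. All 9 trinucleotides were higher in both SNP libraries. The difference was 3.40 points for CAA and 3.36 for CTA, and between 2.16 for CCC and 2.69 for CAC in the other 7. CAA and CTA members together had 41.1% and 40.7% in mock against 44.1% and 44.5% in SNP, and the other kinds had 40.5% and 39.2% in mock against 42.2% and 42.6% in SNP. Their differences, 3.38 and 2.57 points, were 0.804 points apart, which exceeded the pooled SD of 0.413 without overlap of the groups (exact permutation p = 0.333, n = 2 per group). The value was 0.391 points without mock 1, 1.22 without mock 2 and 0.656 after thinning. Not every trinucleotide kept its gap. With a minimum depth of 10 reads the groups overlapped for CCC at a difference of 0.336 points and for CCT at 1.37 points. Under the common listing limit the differences were 2.56 points for CAA, 1.28 for CAC, 1.20 for CTT and 0.168 for CCC, the last with overlap.

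Windows in which CAA and CTA made up 80% or more of the members numbered 131. They had a median density of 603, a median of 5.05% protein-coding bases and a pooled level of 39.1% in mock against 42.5% in SNP. The 30 windows with under 50% CAA and CTA had a median density of 265.5, a median of 48.4% protein-coding bases and a level of 45.1% in mock against 48.0% in SNP. The SNP minus mock differences were 3.44 points in the former and 2.93 in the latter. By edgeR, 106 of the 131 and 7 of the 30 were called higher. The shares called were 62.0% over the 276 pericentromeric windows and 25.8% over all 1051. Windows of these kinds differ in the number of sites, and its part in the counts was not tested beyond the site classes given above.

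To show members of the common kind, the bins with the most CAA and CTA members are given. They were chosen after their values were seen, with capitals as before.
Chromosome 1, chr1:16517601-16517800: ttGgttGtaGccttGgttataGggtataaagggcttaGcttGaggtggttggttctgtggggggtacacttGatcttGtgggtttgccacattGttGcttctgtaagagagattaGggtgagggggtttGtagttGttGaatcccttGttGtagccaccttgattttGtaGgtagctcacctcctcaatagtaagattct
Chromosome 2, chr2:4007201-4007400: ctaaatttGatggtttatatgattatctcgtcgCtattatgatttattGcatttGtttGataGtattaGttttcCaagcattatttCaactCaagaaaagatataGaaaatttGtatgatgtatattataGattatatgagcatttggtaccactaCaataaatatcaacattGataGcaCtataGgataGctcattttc
Each had 19 CAA or CTA members. In the chromosome 1 bin they were 19 of 22 members, all on the minus strand, inside the pseudogene AT1G43745 and in the fullest window of the intervals. Its level was 36.7% and 46.3% in mock against 44.3% and 43.7% in SNP libraries. The chromosome 2 bin had 29 members, 6 of them on the plus strand, and lies 157 bp from SADHU1-1, a copy of a plant retroelement family. Its level was 42.7% and 48.1% in mock against 46.1% and 49.5% in SNP. The groups overlapped in both bins, and members were fewer here than in the first 5 sequences.

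Members were scarce in genes. Protein-coding genes covered 21.5% of the intervals and held 4.23% of the members, and 599 of 2938 such genes had at least 1 member. Annotated pseudogenes covered 25.9% and held 45.1% of the members, with at least 1 in 2514 of 2970. The remaining 50.6% lay outside both. Members were 0.375% of the CHH cytosines of protein-coding genes, 3.08% of those of pseudogenes and 2.06% of the rest. Levels were similar in these classes, with 40.6%, 41.4% and 40.03% in mock, and SNP was higher by 2.74, 3.49 and 2.99 points, each without overlap.

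Single genes held few members, and none of their differences was tested across genes. Of the 1119 protein-coding genes of all chromosomes with at least 3 comparable sites, 28.7% had both SNP libraries above both mock libraries and 9.03% both below. For the 434 of them inside the intervals the shares were 30.2% and 8.29%. Such genes had a median of 10 sites over all chromosomes and 9 inside the intervals. The genes named next hold 53 to 185, so these shares are not matched to their number of sites. The protein-coding gene with the most was AT5G39770 (chr5:15919241-15927549), where 185 members had 47.9% and 47.2% in mock against 51.4% and 53.7% in SNP libraries. On chromosome 1 the most were in AT1G47657 (chr1:17531871-17535174), with 94 members at 47.3% and 42.0% in mock against 52.2% and 50.4% in SNP. In AT3G44703 (chr3:16239471-16244674) 86 members had 42.9% and 45.6% in mock against 48.5% and 49.1% in SNP. In these 3 genes the groups did not overlap. In AT2G10440 (chr2:4013752-4018046), with 53 members, the mean level was 36.8% in mock against 42.9% in SNP without overlap, and in AT4G08630 (chr4:5506809-5512046), with 55 members, it was 39.6% and 41.6% with overlap.

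The chromosome 1 interval contains a group of genes for auxin response factors (ARFs), transcription factors that act on auxin-responsive promoters. ARF22 had 34 members at 37.7% and 40.9% in mock against 43.2% and 45.0% in SNP libraries, and ARF14 had 25 members at 34.4% and 36.6% in mock against 40.5% and 45.6% in SNP. The groups did not overlap in these genes and in ARF23, with 8 members, and did in ARF12, ARF13, ARF15, ARF20 and ARF21, with 3 to 28 members each. In the genes with overlap the SNP minus mock difference ran from -0.673 points in ARF15 to 2.27 in ARF13. It was 0.237 points in ARF12 and 0.427 in ARF21. Groups without overlap were thus found in 3 of 8 genes, and with so few genes nothing is read from this share beside the background of 28.7%. ARF8 on chromosome 5 had 0 members.

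The other contexts were read at the same places. The CG level in the intervals, over 497599 sites, was 92.5% and 92.2% in mock against 91.8% and 91.9% in SNP libraries. The CHG level, over 370838 sites, was 73.3% and 73.5% in mock against 74.8% and 74.2% in SNP. CG was thus lower in SNP by a difference of -0.497 points (pooled SD 0.132) and CHG higher by 1.11 points (pooled SD 0.359), both without overlap and with an exact permutation p of 0.333 (n = 2 per group). In the arms the CG difference was -2.35 points. Within the intervals each context had a difference of the same sign on all 5 chromosomes. Without a maximum depth the differences were -1.11 points for CG, where the groups overlapped, 0.34 for CHG and 1.05 for CHH.

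Finally, the number of sites was compared between treatments. Of 1672205 CHH sites listed in any library in the intervals, 51.7% were in 1 library only and 183643 in all 4. Listed sites of 5 to 50 reads in the library itself numbered 2568 and 2686 per 100 kb in mock and 2745 and 2396 in SNP. SNP 1 had the highest and SNP 2 the lowest density on each of the 5 chromosomes, so that the groups overlapped throughout, and the difference of -56.3 sites per 100 kb was smaller than the pooled SD of 184 (exact permutation p = 1, n = 2 per group). SNP 2 was also the library with the fewest reads. At most 11 reads per site, where the listing limit is equal, gave 1603 and 1634 sites per 100 kb in mock and 1899 and 1874 in SNP, a difference of 268 without overlap, and sites of 10 to 50 reads gave a difference of -296 without overlap. The direction of the density difference was thus not the same in all depth ranges. By window, both SNP libraries had more listed sites than both mock libraries in 8 of 278 windows (2.88%) and fewer in 34 (12.2%), where 0.671% and 25.3% of all 1193 windows of the genome did so.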

How the data were processed

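Genomic DNA of shoot apices was read by EM-seq as paired reads in 4 libraries. The submitters' processing notes name FastQC, Bismark and the build TAIR10, and versions are not given in the sources used here. The authors deposited, per library, a list of called sites, whose columns hold the level of methylation (a fraction) and the depth (a read count). The test behind a call was not given in the sources used here. Level times depth was a whole number in all rows, which gave the methylated reads. All nuclear positions matched a cytosine of TAIR10.1 on the strand given, whose RefSeq annotation gave genes. Nuclear sites numbered 3857352 to 4134559 per library, with 42221751 to 50875710 reads in all, and cytosines outside the lists enter no level.

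Levels were compared with exact permutation tests. Windows of 100 kb, split at interval ends and with at least 20 sites, were tested with edgeR 4.0.16 (limma 3.58.1, R 4.3.3), with a term per library and Benjamini-Hochberg adjustment at 0.05 over all nuclear windows, and the test was tested on simulated data. A read covering several sites counts at each of them. Tables were made with python 3.11.15, numpy 2.4.6 and pandas 2.3.3, and figures with matplotlib 3.10.9.

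The members, lists and windows were chosen with earlier results of these data known. Windows named were, per chromosome, the fullest and those with the highest and lowest mock level, the 10 with the smallest adjusted p and, after their values were seen, the exceptions. Bins were the fullest 200 bp of each chromosome, with the genes they overlap or flank. Thinning to 5 reads was chosen after seeing the data. The genes with most members and the ARF genes were also chosen afterwards.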

Additional observations from a re-analysis of the deposited data

How the results depend on the processing

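Of 183 values under alternative settings, 166 kept their direction or, for counts of windows, stayed within 1.5 times of the main count. Overlap of the groups and p-values did not enter this count. The pericentromeric CHH difference stayed positive in all of its settings, from 1.05 points without a maximum depth to 3.51 points without mock 1, and it was 2.89 to 3.51 points when single libraries were left out. The difference between intervals and arms turned to -0.627 points without a maximum depth and to -0.735 points with each library's own sites, and the cause was not tested. The density difference, -56.3 sites per 100 kb, turned to 268 under the common listing limit, to 128 after thinning and, as a ratio to the arms, to 0.392, and ran from -231 to 118 when single libraries were left out, with 2.49 without mock 2 and 118 without SNP 2.

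Against 171 called windows, limma called 0, windows of 50 kb gave 108 of 547 and windows of 10 kb gave 0 of 1950 (339 at an unadjusted p under 0.05), a minimum depth of 10 gave 0, the common listing limit 0 and thinning 0. Leaving out single libraries gave 68 to 148, the lowest without mock 2. Windows without overlap numbered 160 under the common limit, 80 after subtracting the arm level and 131 after thinning, against 241. The replicate block gave 162 windows, all among the 171. Same-numbered libraries did not deviate together from window to window (correlation 0.0578 over 1051 windows and -0.00373 over the 276). A shift that same-numbered libraries share in all windows does not enter this correlation and was not tested. The block was run for this count only.

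The depth of about 10 reads limits the level of a single site, and a site that lost all methylation leaves the lists and is not seen.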

Other observations

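CHH sites listed in both libraries of one treatment and in none of the other were nearly balanced in the intervals. There were 61544 such sites in mock and 63027 in SNP libraries. By chromosome the counts were 12106 and 12090 on chromosome 1, 9218 and 9782 on chromosome 2, 16294 and 15908 on chromosome 3, 9841 and 10348 on chromosome 4 and 14085 and 14899 on chromosome 5. With at least 5 reads in both libraries they were 56474 in mock and 55944 in SNP. Which treatment had more such sites thus differed between chromosomes and with the depth required.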
